A study of Rattus norvegicus with 8 samples.

Results

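Immediate early genes were examined in the orbital and the global layer of rat extraocular muscle, which turns the eyeball in its socket. The set was given by symbol: Fos, Jun, Junb, Egr1, Atf3, Nr4a1 and Btg2. Every probe set whose annotation held exactly 1 of these 7 symbols was taken, which gave 9 probe sets of 6 genes among 10411 genes named by 1 symbol. None (0) was left out because its annotation named a member beside a second gene. No probe set was annotated to Btg2, and it was skipped. Tissue of adult rats was cut out with a laser microscope, with 4 captures of the orbital layer, which faces the bone, and 4 of the global layer, which faces the eyeball. Each capture was amplified and hybridised to 1 Affymetrix RAE230A array. The labels name no treatment, and strain, sex and number of animals were not stated. The labels do not tie captures to animals, so some may share one; in that case every p-value here, all of which treat captures as independent, is too small. The p-values reflect only how much these captures vary, which may be technical. Captures 1 and 2 of each layer have the title prefix R2 and captures 3 and 4 have R3, and what the prefix stands for is not stated. Orbital captures 3 and 4 have titles that differ only by a suffix (R3OL1 and R3OL1.2), so they may be of 1 sample; they were counted as 2. Their log2 intensities correlated at 0.939 over all probe sets, and those of the other 5 orbital pairs at 0.943 to 0.949.

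Immediate early genes are switched on within minutes of a stimulus, from factors already present in the cell and before any new protein is made. Their products are mostly transcription factors: Fos and Jun proteins pair to form AP-1, Atf3 pairs with members of the same large family, Egr1 is a zinc finger factor and Nr4a1 an orphan nuclear receptor. In skeletal muscle they are known to respond to contraction, stretch and injury, and in many tissues to handling before the RNA is fixed. Their messengers are short-lived. Btg2 is an anti-proliferative co-regulator that responds in the same way.

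Promoters of immediate early genes can hold sites for the factors that start the response, serum response factor at the CArG box and CREB or ATF proteins at TGACG. RefSeq promoter windows of build GRCr8, from 250 bases before to 50 after the start, were matched for 4 of the 7 symbols (Nr4a1, Btg2, Egr1 and Junb). The stretches below are shown because they hold letters that factors known to start the response recognise. They run 5′ to 3′ on the + strand, with TGACG on either strand (read as CGTCA on the other), the CArG box and, for Junb, TATAAA in capitals.
Egr1 (chr18:26736931-26737028): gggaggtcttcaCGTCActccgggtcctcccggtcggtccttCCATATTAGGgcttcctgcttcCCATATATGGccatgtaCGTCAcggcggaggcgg
Nr4a1 (chr7:134260044-134260101): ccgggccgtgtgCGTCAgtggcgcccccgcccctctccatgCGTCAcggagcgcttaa
Junb (chr19:40080959-40081094): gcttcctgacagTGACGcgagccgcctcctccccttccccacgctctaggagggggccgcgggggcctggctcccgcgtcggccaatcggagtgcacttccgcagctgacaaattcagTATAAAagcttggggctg
The Egr1 window held 2 CArG boxes, whose first bases lie 105 and 83 bases before the start, and 2 copies of TGACG, at 135 and 66 bases. The Nr4a1 window held 4 copies of TGACG, of which those at 82 and 53 bases are shown. Junb held 1 copy, at 155 bases, and TATAAA at 49 bases. No CArG box was found in the Nr4a1, Btg2 or Junb window. Of 33469 windows of the same length, searched on both strands, 1.64% held a CArG box, 21.2% TGACG and 14.2% TATAAA. A match is a description of letters and not evidence of binding.

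The arrays were alike in overall signal, with medians of 58.8 to 66.3, and their number limits the precision. All 5 skeletal muscle markers measured were bright in every capture, among them Myh13, the myosin heavy chain of extraocular muscle, at 11055 to 16421 in orbital and 9693 to 14213 in global captures. RNA shortening was read from the Gapdh 3′ over 5′ signal, which averaged 8.41 ± 3.21 (SD, n = 4) for orbital and 5.79 ± 0.478 for global captures (two-sided exact permutation p = 0.114, Benjamini-Hochberg adjusted over 5 measures p = 0.571). It was highest in orbital captures 3 (12.9) and 4 (8.64), and the difference between the means, 2.62, fell to 1.14 without orbital capture 3 (two-sided exact permutation p = 0.200). The beta actin 3′ over 5′ signal was lower on average in orbital (8.43 ± 0.536) than in global captures (8.98 ± 1.43; two-sided exact permutation p = 0.543, Benjamini-Hochberg adjusted p = 0.821). In orbital captures 3 and 4 it was 8.32 and 8.37. Global capture 4 stood apart in other measures: it had the highest beta actin 3′ over 5′ signal of the 8 captures (10.7), the highest bacterial control signal (41.5, beside 17.7 to 24.1 in the others) and correlations of 0.911 to 0.924 with the other captures, where those of the other captures reached 0.938 to 0.949. Among 9520 probe sets, limma called 7.41% different between orbital and global captures, with 3.91% above in orbital and 3.50% above in global captures, at an adjusted p under 0.05.

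The immediate early genes did not move between the layers as a group. Atf3 was the only one that differed, with a higher level in the orbital layer, and that call was lost under most other settings. Fos and Nr4a1 had lower means in the orbital layer, and Egr1 and 1 of 2 tested Jun probe sets higher ones, without passing. Of the 9 probe sets, 6 were bright enough to be tested and 3 (1 each of Fos, Jun and Junb) were not. Of those 6, 1 was higher in the orbital layer and 0 were higher in the global layer, with 1 and 2 at an unadjusted p under 0.05. The share of all probe sets under that unadjusted cut was not counted, so the unadjusted counts have no background. For calls at an adjusted p under 0.05 the background was 3.91% of probe sets higher in orbital and 3.50% in global captures. With 1 call among 6, there are too few to be read against it. The median log2 difference of the 6 (orbital minus global) was 0.15, beside 0.02 over all probe sets tested, with 3 above and 3 below 0.

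**Figure D1:**
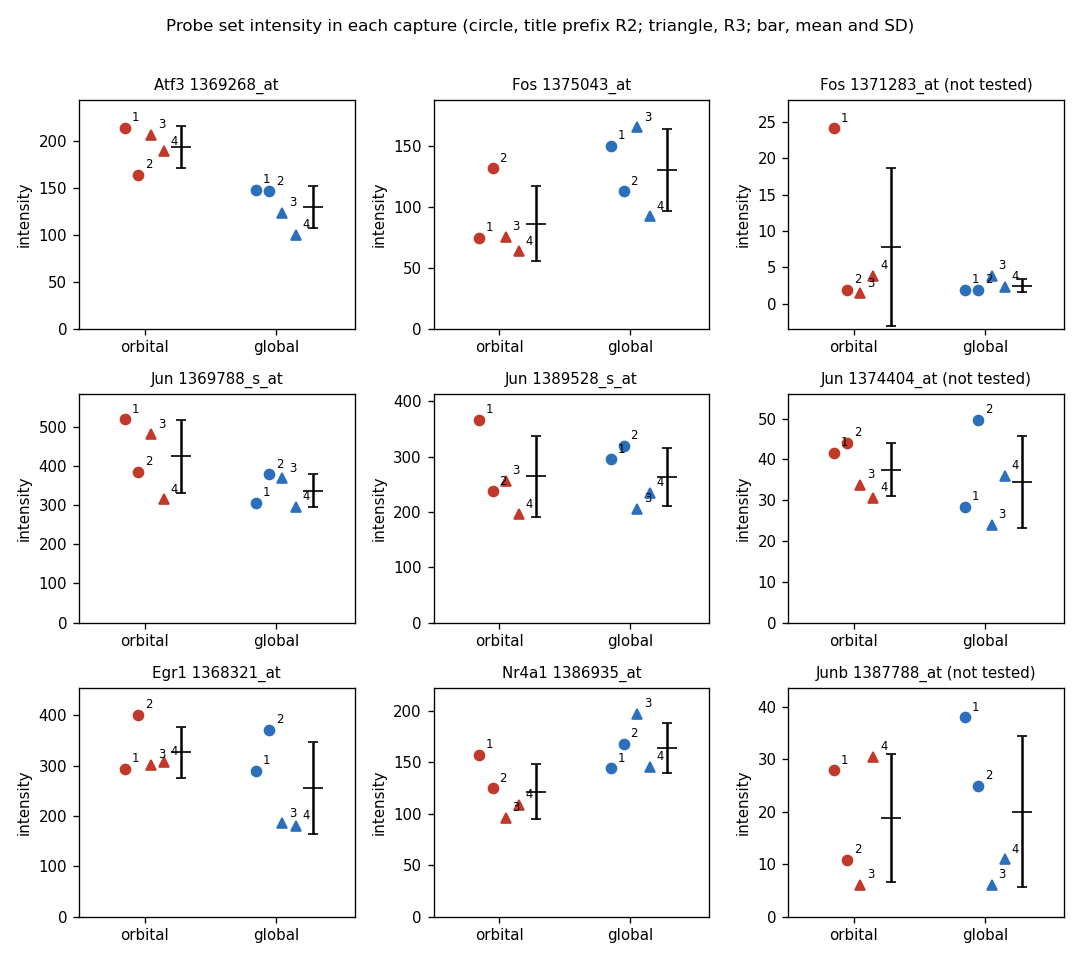
Intensity of each of the 9 probe sets (y axis, linear) in the 4 orbital (red) and 4 global (blue) captures, numbered by capture, with circles for title prefix R2, triangles for R3, and a bar for the mean and SD of each layer. The captures of the layers are apart for Atf3 alone (orbital 163.6 to 214, global 99.5 to 147) and overlap for the other 5 probe sets tested.

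Atf3 (1369268_at) is a stress-responsive factor that can repress or activate its targets. It had intensities of 214, 164, 206 and 188.5 in orbital captures 1 to 4 and 147, 146, 123 and 99.5 in global captures 1 to 4. The lowest orbital capture lay above the highest global capture, which was true of 7.31% of all probe sets tested (6.75% in the opposite direction). The orbital mean was 193 ± 22.2 (SD, n = 4) and the global mean 129 ± 22.5, which is a log2 difference of 0.59 ± 0.16 (SE, limma adjusted p = 0.0470). The call was lost in 16 of 23 alternatives, with adjusted p between 0.0355 and 0.597 over all of them and a difference between 0.35 and 0.83. Leaving out orbital capture 1, 3 or 4 or global capture 1, 3 or 4 was enough to end it (adjusted p 0.0561 to 0.122). With orbital captures 3 and 4 averaged as 1 sample the adjusted p was 0.0901. Within prefix R2 alone the log2 difference was 0.35 and within R3 alone 0.83.

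The Fos probe sets, whose protein is the partner of Jun in AP-1, disagreed in how much signal they gave. At 1375043_at the intensities were 74.4, 131, 75.2 and 63.2 in orbital captures 1 to 4 and 149.9, 112, 165 and 92.0 in global captures 1 to 4. Orbital captures 1, 3 and 4 lay below every global capture, while orbital capture 2 lay above global captures 2 and 4. The log2 difference was -0.61 ± 0.25 (SE), with a 95% interval of -1.14 to -0.08 (limma adjusted p = 0.171). Without orbital capture 2 it was -0.83 and passed (limma adjusted p = 0.0490). The second Fos probe set, 1371283_at, gave 24.1 in orbital capture 1 and between 1.4 and 3.8 in the other 7 captures. Only in orbital capture 1 was it above the highest of 27 bacterial control probe sets of its array (23.4), so it carries no measurable layer difference.

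Jun, the AP-1 subunit that can also pair with itself, had 3 probe sets. At 1369788_s_at the intensities were 519.8, 384.5, 481 and 315 in orbital captures 1 to 4 and 305, 379, 369 and 296 in global captures 1 to 4. Orbital captures 1, 2 and 3 lay above all global captures and orbital capture 4 lay among them. The log2 difference was 0.31 ± 0.17 (SE), with a 95% interval of -0.05 to 0.67 (limma adjusted p = 0.304). At 1389528_s_at they were 367, 237, 256 and 196 in the orbital and 295, 319, 205 and 234 in the global captures, with a difference of -0.01 ± 0.20 and an interval of -0.44 to 0.41 (limma adjusted p = 0.980). The highest and the lowest capture were both orbital there. The third probe set, 1374404_at, lay between 23.9 and 49.6 in all 8 captures and was not tested. Relative to the mean of their layer, the 2 tested Jun probe sets lay on the same side in 5 of 8 captures, so even probe sets of 1 gene did not move together in every capture. Their Pearson's r over these 8 values was 0.64, above that of every pair of different member genes (at most 0.50). Junb (1387788_at), a Jun relative, lay between 6.1 and 30.5 in the orbital and between 6.1 and 38.0 in the global captures. It was above the highest bacterial control in 2 captures of each layer and was not tested.

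Egr1 (1368321_at), a factor that binds GC-rich sites in growth and stress genes, had intensities of 294, 401, 301 and 307.5 in orbital captures 1 to 4 and 289, 370.4, 185 and 179.9 in global captures 1 to 4. The low values were global captures 3 and 4, both of prefix R3, and the R2 captures of the layers overlapped. The log2 difference was 0.40 ± 0.22 (SE), with a 95% interval of -0.07 to 0.87 (limma adjusted p = 0.312). It was 0.07 within prefix R2 and 0.73 within R3. The difference between these values, 0.67, had a limma adjusted p near 1 (0.99986). None (0) of the 9520 probe sets passed that test of the difference and 290 had an unadjusted p under 0.05. Adjusted for layer, Egr1 was lower in R3 than in R2 captures by a log2 difference of -0.51 (limma adjusted p = 0.593). The 3′ probe set of the cre spike-in control, added in the array protocol, also split by prefix, at 5346 to 6397 in R2 and 9575 to 11560 in R3 captures; its part in the result was not tested.

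Nr4a1 (1386935_at), a nuclear receptor induced by exercise in muscle, had intensities of 157, 124, 95.6 and 108 in orbital captures 1 to 4 and 144, 168, 197 and 146 in global captures 1 to 4. Orbital capture 1 lay among the global captures and the other 3 orbital captures lay below all of them. The log2 difference was -0.44 ± 0.18 (SE), with a 95% interval of -0.83 to -0.05 (limma adjusted p = 0.173). It was -0.15 within prefix R2 and -0.73 within R3, and in all 23 alternatives it stayed below 0 without passing.

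**Figure D2:**
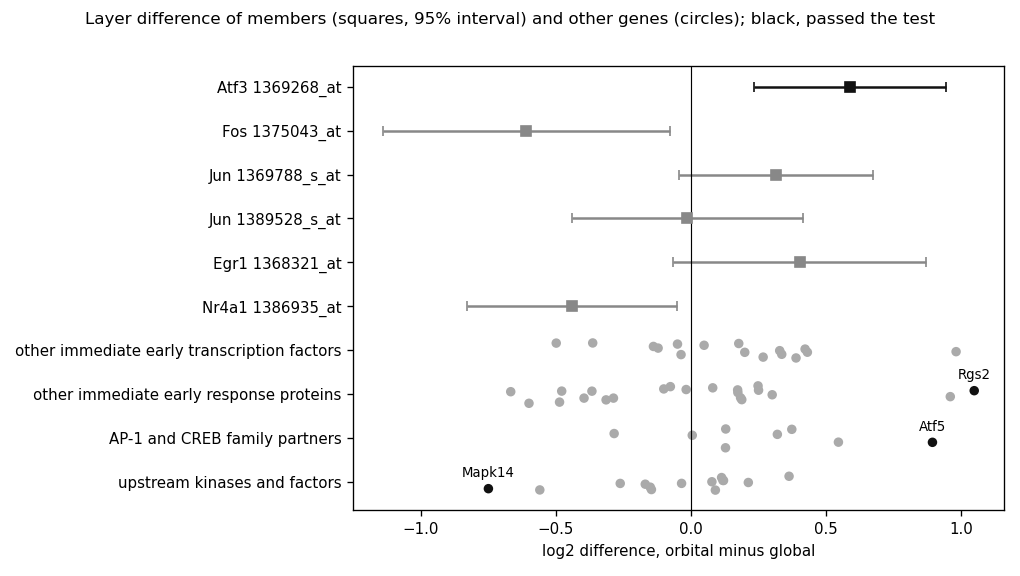
Log2 difference of the orbital minus the global layer (x axis) for the 6 tested probe sets, as squares with their 95% interval, and for 59 genes of 4 related lists, as circles spread vertically for display, with black for those that passed. Atf3 is the black square at 0.59, the other 5 squares are grey, and 3 circles are black (Rgs2, Atf5 and Mapk14).

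Related genes were read from lists, beside a background of 3.91% of all probe sets tested called higher in orbital and 3.50% in global captures. That background is for calls at an adjusted p under 0.05, and none was counted for the unadjusted counts of the lists. Of 26 other immediate early transcription factors, 16 were tested and 0 passed in limma in either direction, with 1 at an unadjusted p under 0.05. Their median log2 difference was 0.19, beside 0.02 over all probe sets tested. Ier2, an early response nuclear protein, averaged 198.5 ± 40.7 (SD, n = 4) in orbital and 150.1 ± 21.8 in global captures (log2 difference 0.39 ± 0.18, limma adjusted p = 0.221). Klf4, a Krüppel-like zinc finger factor, had 816 ± 129 and 653 ± 127 (0.33 ± 0.15, limma adjusted p = 0.240). Neither gene separated the layers. Ier5, of the same list, did so without passing, at 233 to 237 in orbital and 188 to 224 in global captures (limma adjusted p = 0.455). That order was found in 7.31% of all probe sets tested, and Ier5 is named after its values were seen.

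The list of other early response proteins, such as phosphatases, RNA-binding proteins and growth regulators, held 32 symbols, some of them older names of a gene also listed. Of these, 21 were tested, and 1 rose in the orbital layer and 0 fell, with 2 and 3 at an unadjusted p under 0.05 in limma. Beside the 3.91% of all probe sets tested called higher in orbital captures, 1 call among 21 is too few to be read as a result of the list. The median difference was -0.02. The gene that rose was Rgs2, which shuts off signals from receptors coupled to G proteins. Its intensities were 1801, 1040.2, 1313 and 785 in orbital captures 1 to 4 and 602, 636.5, 545.5 and 504 in global captures 1 to 4, with no overlap. That order was found in 7.31% of all probe sets tested. The means were 1235 ± 435 (orbital) and 572 ± 58.8 (global; log2 difference 1.05 ± 0.21, limma adjusted p = 0.00719). It passed on leaving out any 1 capture (adjusted p 0.0014 to 0.0276), and within each prefix alone the difference was 1.14 (R2) and 0.95 (R3) without passing (limma adjusted p = 0.0869 and 0.0953).

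Of 15 AP-1 and CREB family partners, with which the Fos, Jun and Atf3 proteins can pair or compete, 8 were tested, and 1 rose in the orbital layer and 0 fell, with 3 and 1 at an unadjusted p under 0.05 in limma. Against 3.91% of all probe sets tested called higher in orbital captures, 1 call among 8 is too few to be read as a result of the list. The median difference was 0.22. Atf5, a stress-responsive relative of Atf4, rose, with 414, 277, 328 and 235 in orbital captures 1 to 4 and 149, 174, 148 and 190.3 in global captures 1 to 4. All orbital captures lay above all global ones, as in 7.31% of all probe sets tested, and the log2 difference was 0.89 ± 0.18 (SE, limma adjusted p = 0.00719). It passed on leaving out any 1 capture (adjusted p 0.00396 to 0.0269), and within each prefix alone the difference was 1.06 (R2) and 0.72 (R3) without passing (limma adjusted p = 0.0892 and 0.204).

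The list of kinases and factors upstream of the early response held 28 symbols, with Mkl1 an older name of Mrtfa, also listed. Of these, 14 were tested, and 1 fell in the orbital layer and 0 rose, with 1 in each direction at an unadjusted p under 0.05 in limma. With 3.50% of all probe sets tested called higher in global captures, 1 call among 14 is too few to be read as a result of the list. The median difference was 0.02. Mapk14, the alpha form of the p38 stress kinase, fell, with 292, 198, 219.8 and 241 in orbital captures 1 to 4 and 408.5, 412, 414 and 354 in global captures 1 to 4, again with no overlap (6.75% of all probe sets tested had that order). The log2 difference was -0.75 ± 0.14 (SE, limma adjusted p = 0.00562), and it was -0.77 within R2 and -0.73 within R3, where it did not pass (limma adjusted p = 0.186 and 0.123). It passed on leaving out any 1 capture (adjusted p 0.0043 to 0.0210) and not with orbital captures 1 and 2 alone (0.0633).

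Markers of other cell types differed in part between the layers. In tissue captures, fewer cells of a type and less RNA per cell cannot be told apart. All 4 smooth muscle markers (Myh11, Acta2, Tagln and Cnn1) summed to 223 to 346 in the orbital and 524 to 694 in the global captures. Most of that sum was Myh11, the smooth muscle myosin heavy chain, which fell in the orbital layer (168 ± 56.6 and 424 ± 66.7, SD, n = 4; log2 difference -1.39, limma adjusted p = 0.00267). Acta2, smooth muscle actin, overlapped between the layers (67.5 and 69.6 on average; log2 difference -0.05, limma adjusted p = 0.928), Tagln had a difference of -0.73 (limma adjusted p = 0.0977), and Cnn1 was too dim to be tested. The 4 endothelial markers summed to 671 to 995 and 598 to 708, the 5 fibroblast markers to 4373 to 6635 and 3212 to 5555, and the 5 macrophage and leukocyte markers to 959 to 2042 over all captures. Nerve and retina signal varied widely between captures. The 2 Schwann cell markers summed to 2072 to 4230 in orbital and 1008 to 4166 in global captures, and the 2 photoreceptor markers to 229 to 1025 and 10.9 to 500.5. Of the endothelial markers, Eng alone, a receptor for factors of the TGF-beta family, rose in the orbital layer (79.5 ± 20.9 and 32.7 ± 12.5, log2 difference 1.29, limma adjusted p = 0.0193). Its global values (20.2 to 49.6) lay near the highest bacterial controls of those arrays (17.7 to 41.5). Pecam1 (0.16, limma adjusted p = 0.774), Kdr (0.17, 0.659) and Vwf (0.41, 0.123) were higher on average in orbital captures without passing. The part of these cells in the differences of Atf3, Fos and Nr4a1 was not tested.

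Whether the members rose together was read from single captures, as log2 intensity minus the mean of the layer, with the 5 tested genes each by their brightest probe set. No capture had all 5 above the mean of its layer. In orbital capture 4 and in global capture 4 all 5 were below it, with medians of -0.14 and -0.35, while the medians over all probe sets tested were -0.01 and 0.03. Of all probe sets tested, 48.5% lay above the mean of the layer in orbital capture 4 and 54.3% in global capture 4. How often 5 genes would all lie on the same side in some capture was not tested. In global capture 4, which had the lowest Atf3 and Egr1 of all 8 captures, the 5 genes lay between -0.45 and -0.15. In orbital capture 4 they lay between -0.40 and -0.03, and 4 of the 5 were below under cyclic loess normalization or without any 1 of the other orbital captures. Its Gapdh 3′ to 5′ ratio was the second highest, and that of global capture 4 (6.47) the highest of its layer; that capture also had the highest beta actin ratio and bacterial control signal. The summed macrophage and leukocyte markers were the lowest of their layer in orbital capture 4 (986) and global capture 4 (959), and Myh13 was the highest there (16421 and 14213). Lyz2 made up most of that leukocyte sum, averaging 833 in orbital and 904 in global captures. The summed fibroblast markers were lowest of the orbital layer in capture 4 (4373). In the global layer they were lowest in capture 3 (3212) and not in capture 4 (4013). The summed skeletal muscle markers were highest of the layer in orbital capture 4 (57578). In global capture 4 (53493) they lay below global capture 3 (63957). Schwann cell markers summed to 4166 in global capture 4 and 1008 to 1667 in the other global captures, but to 2260 in orbital capture 4, within the range of its layer. Across the 8 layer-centred values, the 5 macrophage and leukocyte markers had a Pearson's r of 0.28 to 0.73 with the mean of the members (Cd68 highest), the 5 fibroblast markers 0.15 to 0.84 (Lum highest) and the 5 skeletal muscle markers -0.97 (Myh13) to 0.25 (Myh2), with Acta1, Ckm and Tnnc2 at -0.58 to -0.65. For the endothelial markers this r was -0.28 to 0.05, for the tested smooth muscle markers -0.29 to 0.33 and for the Schwann cell markers -0.55 and -0.41. It was -0.53 and -0.33 for the photoreceptor markers, 0.49 (Hbb) and -0.05 (Alas2) for red blood cells and 0.04 for Myod1. These r were not set beside those of all probe sets. The part of RNA quality and of cell types in the joint movement was not tested.

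The other 6 captures were mixed. In global capture 2 there were 4 genes above and 1 (Fos, -0.17) below, with Egr1 furthest up at 0.60. In global capture 1 there were 3 above, namely Atf3, Fos and Egr1 at 0.21 to 0.24, and Jun and Nr4a1 were below. In global capture 3 Fos was at 0.38 and Nr4a1 at 0.28 while Egr1 was at -0.40. In orbital capture 1 Nr4a1 (0.39), Jun (0.32) and Atf3 (0.15) were above and Fos (-0.15) and Egr1 (-0.14) below. In orbital capture 2 this was turned round, with Fos (0.66), Egr1 (0.31) and Nr4a1 (0.06) above and Atf3 (-0.23) and Jun (-0.12) below. Orbital capture 3 had 2 above, Jun (0.20) and Atf3 (0.10).

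**Figure D3:**
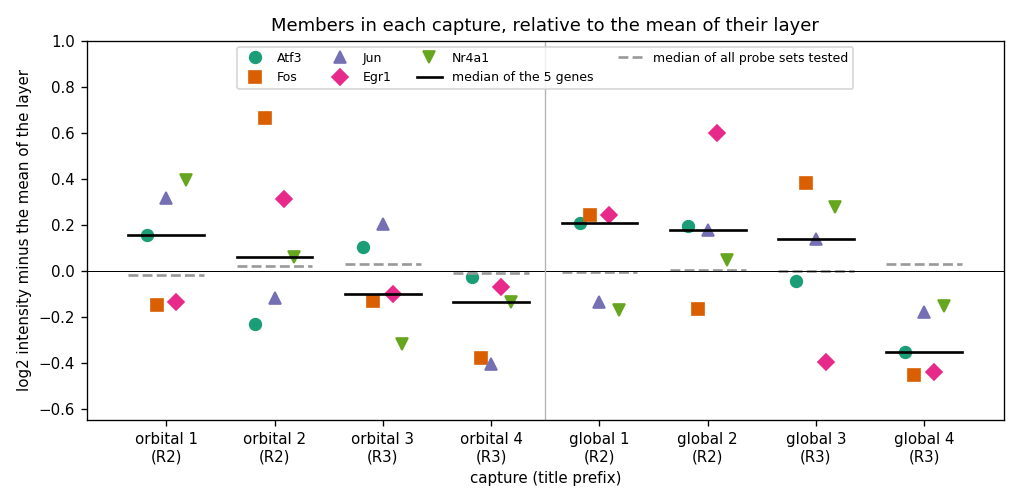
Log2 intensity minus the mean of the layer (y axis) for the 5 tested genes in each of the 8 captures (x axis, with title prefix), with a solid line for the median of the 5 genes and a dashed line for the median of all probe sets tested. All 5 genes are below 0 in orbital capture 4 and global capture 4, and lie on both sides of 0 in the other 6 captures.

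Taken by pairs, 2 genes lay on the same side of their layer's mean in 3 to 6 of 8 captures. Across these 8 layer-centred values, which share arrays and scaling, Pearson's r of the 10 pairs was between -0.08 (Egr1 and Nr4a1) and 0.50 (Jun and Nr4a1), with a median of 0.19, beside 0.004 over all pairs of probe sets tested, of which 10% lay above 0.56. Jun and Atf3 (0.48) and Egr1 and Atf3 (0.47) came next. Fos and Jun, the partners in AP-1, had 0.11. Each gene had an r of 0.28 to 0.38 with the mean of the other 4. These are descriptions of 8 captures and were not tested.

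By the same measure, the 6 genes most like the mean of the 5 members were Vsig10 (r = 0.98), Mkrn1 (0.97), Dusp11 (0.96), Zfp384 (0.96), Rab5b (0.96) and Smim15 (0.95), the highest of the tested probe sets with 1 gene name. Vsig10 had 130.0, 149, 111 and 96.2 in orbital captures 1 to 4 and 113, 143, 122 and 67.2 in global captures 1 to 4. It was lowest of its layer in orbital capture 4 and global capture 4, as was the member mean (-0.20 and -0.32). The 6 genes were picked for their r with that mean, so a high r and shared low captures follow from the choice. Whether their r exceeds what such picking gives by chance was not tested. None of the 6 differed between the layers (limma adjusted p 0.621 to 0.967).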

How the data were processed

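Per the labels, capture RNA was expanded by T7 amplification and read on 1-colour Affymetrix RAE230A arrays. The deposited table holds 1 linear intensity per probe set and array; the software is not given in the sources used here. The authors had scaled the arrays, since 2% trimmed means differed by 0.0039%, and values were used as deposited. Of 15923 probe sets, 57 controls were left out. Tested were those in the upper part by mean log2 value, from the 40th percentile (intensity 39.4) up. The model, log2(intensity + 1) on layer alone, was fitted with lmFit and trended eBayes (limma 3.58.1, R 4.3.3), and p-values were adjusted by Benjamini-Hochberg. Fold changes of dim probe sets depend on the pseudocount. Platform annotation gave 1 symbol to 12783 probe sets, several to 312 and none to 2771. Each list gene was read at its brightest tested probe set. Named are all member probe sets, up to 4 passing genes per list (else the 2 with the smallest p) and the 6 genes most like the member mean. Members and lists were chosen with earlier results of these data known. On simulated data for 4 against 4 independent captures, 200 of 9520 probe sets were changed. Of changes of 1 and 2 (log2), 69% and 96% were recovered, with 9 false calls among the unchanged probe sets. The simulation held no shared prefix, sample or animal. Alternatives covered normalization, pseudocount, filter, eBayes, prefix, array weights and captures left out.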

Additional observations from a re-analysis of the deposited data

Results flagged for a closer look

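In the 18 groups of 4 captures screened (9 probe sets in 2 layers), 2 held a capture far from the other 3, where chance flags about 1 in 20 groups. Egr1 (1368321_at) was 401 in orbital capture 2 and 294 to 307.5 in the other 3 orbital captures. The dim Fos probe set 1371283_at was 24.1 in orbital capture 1 and 1.4 to 3.8 in the other 3.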

How the results depend on the processing

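Of the 6 probe sets tested, Egr1, Nr4a1 and Jun 1369788_s_at kept their direction and did not pass in any of the 23 alternatives. The Atf3 call was lost, so that 0 probe sets were higher in the orbital layer, with quantile or cyclic loess normalization, without the filter, without trend, with the prefix as a random replicate block (adjusted p = 0.0543), with array weights, with orbital captures 3 and 4 averaged, within either prefix alone and with orbital captures 1 and 2 alone (a setting chosen after seeing the data); the cause was not tested. With the prefix as a fixed replicate block Atf3 passed (0.0480). Captures of different layers with the same prefix had deviations correlated at -0.005 to 0.11 (7 of 8 pairs above 0), and those of different prefix at -0.134 to 0.045 (2 of 8 above 0); the labels name no shared animal, so a prefix was not taken as a pairing. Leaving out 1 capture gave 0 to 1 calls in each direction, and the 1 higher in the global layer was Fos without orbital capture 2. Jun 1389528_s_at turned to 0.053 with orbital captures 3 and 4 averaged, 0.030 in prefix R3, 0.18 with orbital captures 1 and 2 alone and -0.18 to 0.12 on leaving out 1 capture. Of the other lists, 2 genes higher in the orbital layer became 0 within either prefix and 2 to 4 on leaving out 1 capture, and the 1 higher in the global layer became 0 within either prefix or with orbital captures 1 and 2 alone. Over all probe sets 705 passed, and 106 in R2, 170 in R3, 363 with orbital captures 1 and 2 alone and 461 without global capture 3. The beta actin 3′ to 5′ ratio (orbital minus global -0.55) was between -0.981 and 0.0223 on leaving out 1 capture. Low signal limits Junb and 1 probe set each of Fos and Jun.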

Other observations

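Among the AP-1 and CREB family partners, 2 genes chosen after their values were seen also had all 4 orbital captures above all 4 global captures without passing, where 7.31% of all probe sets tested had that order. Ddit3, a factor of the unfolded protein response, averaged 333 ± 73.3 (SD, n = 4) in orbital and 225 ± 25.7 in global captures, differing on the log2 scale by 0.55 ± 0.17 (SE, limma adjusted p = 0.0697). Atf4, a regulator of amino acid stress genes, had 918 ± 161 and 702 ± 42.8 (0.37 ± 0.14, limma adjusted p = 0.122). Ccn2 and Homer1 belong to the list of other early response proteins and were also chosen after their values were seen. Ccn2, a matricellular early response protein, had 1760 ± 794 and 888 ± 375 (0.96 ± 0.33, limma adjusted p = 0.108), and its captures overlapped between the layers. Homer1, a scaffold protein with an activity-induced short form, had the opposite order, with 164 ± 33.3 and 227 ± 27.6 and all 4 global captures above all 4 orbital captures (-0.49 ± 0.16, limma adjusted p = 0.0989), where 6.75% of all probe sets tested had that order.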
